A study of Homo sapiens with 4 samples.

Results

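Apolipoproteins are the protein parts of the particles in which liver cells export fat and cholesterol. The genes described here are APOA1, APOA2, APOA5, APOB, APOC1, APOC3, APOE, APOH and APOM, which encode proteins that liver cells secrete on or with such particles, and MTTP, whose product loads lipid onto APOB in the endoplasmic reticulum. They were taken by gene symbol, 10 of the 24462 genes in the deposited counts. The rule uses no measured value, but the set was drawn up with earlier results of these data known. All 10 were listed and all passed the filter on low counts, a minimum of 10 reads in either library compared, in every comparison.

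Lipoproteins that carry APOB deliver triglyceride and cholesterol from the liver to other tissues, whereas high-density lipoproteins (HDL), built on APOA1 and APOA2, take up cholesterol and return it. Smaller, exchangeable apolipoproteins such as APOC3, APOA5 and APOE move between particles and set how fast their fat is hydrolysed and how fast remnants are cleared. CDK4 and CDK6 are cyclin D-dependent kinases that act in G1 phase of the cell cycle. The study used the libraries to assess genes of glycolysis and the TCA cycle when these kinases were inhibited or knocked down. It also linked the genes most changed by the knockdown to DNA replication, chromosome segregation, regulation of fatty acid oxidation and lipid catabolism, among others. The apolipoprotein genes are described here from the same libraries.

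Gene expression was measured in HepG2, an established human liver cancer cell line, with QuantSeq 3′ mRNA sequencing, which primes on the poly(A) tail and so reads the end of a transcript whatever its length. There were 4 libraries, 1 per condition, all from HepG2 cells grown in RPMI medium with fetal bovine serum. Cells of the chemical arm received PD0332991, an inhibitor of the CDK4 and CDK6 kinases, or its solvent DMSO. Cells of the siRNA arm were transfected with siRNA against CDK4 together with siRNA against CDK6 (CDK4/6 KD), or with scrambled siRNA. How much PD0332991 was given and for how long, and when after transfection RNA was taken, are not given in the sources used here. HepG2 is a tumour line and not normal hepatocytes, and all conditions derive from it.

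The libraries held between 8983848 and 11176880 reads, with 12780 to 13257 genes at 10 reads or more. CDK4 was at 354 counts per 1000000 reads (CPM, with library sizes scaled by edgeR's TMM factors) in scrambled siRNA and 71.9 in CDK4/6 KD, a fold change of 0.203, and CDK6 was at 536 and 129, a fold change of 0.241. All 8 hepatocyte markers were detected in every library, with a summed level between 7401 CPM in scrambled siRNA and 11660 CPM in CDK4/6 KD, and between those libraries all 8 differed in that direction beyond counting error. Of these 8 markers, 7 are also in the list of other secreted liver proteins used below. Endothelial markers summed to at most 0.467 CPM. Of 16 keratinocyte markers, 11 passed the filter in PD0332991 against DMSO. Of these, 8 were at least 2-fold higher in PD0332991 (7.49% of all genes) and 1, SFN, was lower (7.07%). Among the 8 were KRT14 with 9 reads in DMSO and 249 in PD0332991, and LGALS7 with 3 and 10. Several of the 8, KRT14 and LGALS7 included, passed only through PD0332991. Of 7 fibroblast markers 5 passed in scrambled siRNA against DMSO, some only through DMSO. All 5 were at least 2-fold lower in scrambled siRNA (6.64% of all genes). Of the keratinocyte markers SFN had 563 to 3266 reads and KRT10 514 to 986, and DSG3 and TP63 had at most 2. The fold change of SFN in PD0332991 against DMSO was 0.463. The summed fibroblast level was 49.7 CPM in DMSO, 80.3 in PD0332991, 8.88 in scrambled siRNA and 22.9 in CDK4/6 KD. In the same order the summed keratinocyte level was 211, 237, 376 and 213 CPM. Leukocyte markers summed to 751 CPM in DMSO, 516 in PD0332991, 1035 in scrambled siRNA and 508 in CDK4/6 KD, nearly all of it LYZ (742, 504, 1022 and 501 CPM), while CD68 had 75 to 136 reads, PTPRC at most 2 and CD3E none. Enterocyte markers summed to 47.6 to 68.3 CPM, mostly VIL1 with 485 to 602 reads, while FABP2 had at most 23 reads and SI and LCT none. What part these other-cell markers have in the values below was not tested. The cells were measured in bulk, so a change in the share of cells that make a message cannot be told apart from a change in the message per cell.

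As each condition had 1 library, no difference could be checked in replicates and no p-values were calculated. A fold change is the ratio of TMM-scaled counts, and the bracketed 95% interval beside it is the exact Clopper-Pearson range for how a gene's reads divide between the libraries, which covers counting error only and compares libraries, not conditions. The words higher and lower are used in that sense. Positions are those of GENCODE 29 on GRCh38, which is not the build the counts were made on.

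Together the 10 genes took 1.64% (1.63 to 1.65) of all reads in DMSO, 2.06% (2.05 to 2.07) in PD0332991, 1.94% (1.93 to 1.95) in scrambled siRNA and 2.10% (2.09 to 2.10) in CDK4/6 KD. On the TMM scale used for all other levels here, the 10 genes summed to 16340 CPM in DMSO, 20330 in PD0332991, 20250 in scrambled siRNA and 20370 in CDK4/6 KD, so the sum was higher with PD0332991 than with DMSO and nearly the same in the knockdown and its control. Per 100 reads on 28 other secreted liver genes, reads on the set were 124.1 in DMSO, 129.1 in PD0332991, 178.1 in scrambled siRNA and 112.3 in CDK4/6 KD, so on that base the knockdown was below its control. In CDK4/6 KD against scrambled siRNA, APOC3, APOA5 and APOH were more than 2-fold higher, and APOA1, APOC1, APOE and MTTP were higher by less, while APOM, APOA2 and APOB were lower. In PD0332991 against DMSO every gene but APOH was higher, and none reached 2-fold.

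**Figure D1:**
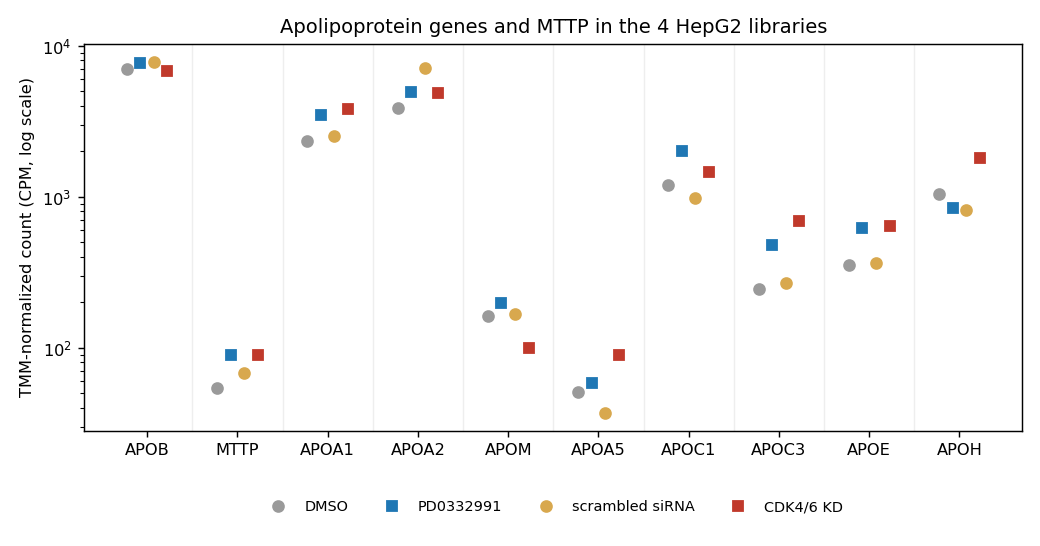
Normalised counts of the apolipoprotein genes and MTTP in the 4 libraries, in CPM on a log scale; each point is 1 library, circles are controls (DMSO, scrambled siRNA) and squares are inhibited cells (PD0332991, CDK4/6 KD). APOB, at 6815 to 7851 CPM, varies least, and APOC3, at 244 to 694 CPM, varies most.

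APOB (chr2:21001429-21044073, minus strand) is the large structural protein of very-low-density and low-density lipoproteins, and stays with the particle throughout its life. It was at 7039 CPM in DMSO, 7625 in PD0332991, 7851 in scrambled siRNA and 6815 in CDK4/6 KD. It ranked between 3 and 5 among all genes by count. Control and inhibited libraries overlapped, since CDK4/6 KD was lowest and scrambled siRNA highest. The fold change was 0.868 (0.860 to 0.877) in CDK4/6 KD against scrambled siRNA and 1.08 (1.07 to 1.10) in PD0332991 against DMSO. These narrow intervals come from 64318 to 84010 reads per library and say nothing of the spread between cultures.

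MTTP (chr4:99563761-99623999, plus strand), the lipid-loading partner of APOB and limiting for particle assembly, was counted at 54.4 CPM in DMSO, 90.1 in PD0332991, 68.4 in scrambled siRNA and 88.8 in CDK4/6 KD. Both inhibited libraries were above both controls. It was 1.66-fold (1.48 to 1.86) higher in PD0332991 than in DMSO and 1.30-fold (1.18 to 1.43) higher after the knockdown than with scrambled siRNA. As the control libraries themselves differed 1.26-fold (1.12 to 1.41), with scrambled siRNA higher, the knockdown difference was about as large as that between controls. Reads on MTTP per read on APOB were 0.00773 in DMSO, 0.0118 in PD0332991, 0.00871 in scrambled siRNA and 0.0130 in CDK4/6 KD. This ratio of messages was thus higher in each inhibited library than in its control, and protein was not measured.

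APOA1 (chr11:116835751-116837950, minus strand), the main protein of HDL and the activator of the enzyme LCAT, was at 2347 CPM in DMSO, 3490 in PD0332991, 2537 in scrambled siRNA and 3825 in CDK4/6 KD. Both inhibited libraries stood above both controls, and among all genes APOA1 ranked 29 in DMSO, 16 in PD0332991, 28 in scrambled siRNA and 11 in CDK4/6 KD. APOA1 was 1.51-fold (1.49 to 1.53) higher in CDK4/6 KD and 1.49-fold (1.46 to 1.51) higher in PD0332991, and the controls differed by 1.08-fold (1.06 to 1.10). An antisense gene, APOA1-AS, overlaps it on the other strand. It had 40 reads with scrambled siRNA and 134 after the knockdown, against 27152 and 43296 on APOA1. Whether the authors counted by strand is not given in the sources used here, so reads of such pairs cannot be told apart.

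APOA2 (chr1:161222292-161223631, minus strand), the other abundant HDL protein, had a different order. It was counted at 3863 CPM in DMSO, 4914 in PD0332991, 7168 in scrambled siRNA and 4866 in CDK4/6 KD, so that scrambled siRNA was the high library and the other three lay close together. The fold change of CDK4/6 KD to scrambled siRNA was 0.679 (0.672 to 0.686), that of PD0332991 to DMSO was 1.27 (1.25 to 1.29), and that of scrambled siRNA to DMSO was 1.86 (1.83 to 1.88). Set against DMSO, CDK4/6 KD was higher, 1.26-fold (1.24 to 1.28), so the direction for APOA2 in the knockdown depended on which control was used. The ratio of APOA2 to APOA1 reads, which no scaling of the libraries touches, was 1.65 in DMSO, 1.41 in PD0332991, 2.83 in scrambled siRNA and 1.27 in CDK4/6 KD.

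APOM (chr6:31652416-31658210, plus strand) rides mostly on HDL and carries sphingosine-1-phosphate. Its level was 162 CPM in DMSO, 198 in PD0332991, 168 in scrambled siRNA and 99.1 in CDK4/6 KD. The controls agreed within counting error, with a ratio of 1.03 (0.964 to 1.11), and the 2 inhibited libraries lay on opposite sides of them. The fold change was 0.591 (0.548 to 0.637) in CDK4/6 KD against scrambled siRNA and 1.22 (1.14 to 1.30) in PD0332991 against DMSO, and against DMSO the knockdown gave 0.610 (0.564 to 0.660). The symbol is listed 7 times in the deposited counts and 1 of these entries had reads. BAG6 overlaps APOM, AC010872.1 overlaps APOB, and TRMT10A and AC083902.1 overlap MTTP, all on the other strand, and AC011481.3 overlaps APOE and APOC1 on the same strand, so reads there could have gone to either gene.

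APOC3 (chr11:116829706-116833072, plus strand), which inhibits lipoprotein lipase and slows the clearance of triglyceride-rich remnants, was at 244 CPM in DMSO, 476 in PD0332991, 269 in scrambled siRNA and 694 in CDK4/6 KD. It differed most among the 10 genes, 2.84-fold between the lowest and the highest library, and the inhibited libraries were well above the controls. The fold change was 2.58 (2.47 to 2.70) in CDK4/6 KD and 1.95 (1.85 to 2.05) in PD0332991, against 1.10 (1.04 to 1.17) between the controls. Taken against the control of the other arm, CDK4/6 KD was 2.84-fold (2.71 to 2.98) and PD0332991 1.77-fold (1.69 to 1.86) higher.

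APOA5 (chr11:116789367-116792420, minus strand) acts the opposite way to APOC3, since it promotes triglyceride hydrolysis by lipoprotein lipase. It was the least counted gene of the set in DMSO, PD0332991 and scrambled siRNA, with 463 reads in DMSO, 528 in PD0332991 and 395 in scrambled siRNA, and had 1015 in CDK4/6 KD. Its level was 50.7 CPM in DMSO, 58.0 in PD0332991, 36.9 in scrambled siRNA and 89.7 in CDK4/6 KD, so only the knockdown library stood well above the others. The fold change was 2.43 (2.16 to 2.74) in CDK4/6 KD and 1.14 (1.01 to 1.30) in PD0332991. Because scrambled siRNA was below DMSO, at a ratio of 0.729 (0.635 to 0.835), CDK4/6 KD was 1.77-fold (1.58 to 1.98) above DMSO, under the 2-fold mark. Reads on APOC3 per read on APOA5, a ratio formed after the values were seen, came to 4.81 in DMSO, 8.20 in PD0332991, 7.28 in scrambled siRNA and 7.73 in CDK4/6 KD, so DMSO was the library apart, and the knockdown and its control were alike in it although both genes differed more than 2-fold between them.

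APOC1 (chr19:44914247-44919349, plus strand), an inhibitor of the cholesteryl ester transfer protein and of remnant uptake, was at 1190 CPM in DMSO, 2021 in PD0332991, 980 in scrambled siRNA and 1454 in CDK4/6 KD. PD0332991 was the high library. The fold change was 1.70 (1.66 to 1.74) in PD0332991 and 1.48 (1.45 to 1.52) in CDK4/6 KD, and scrambled siRNA was below DMSO at a ratio of 0.823 (0.801 to 0.846). APOC1 has a near copy, the transcribed pseudogene APOC1P1, so its counts are uncertain where reads could fall on either; APOC1P1 had 123 reads in DMSO, 224 in PD0332991, 214 in scrambled siRNA and 420 in CDK4/6 KD, few beside the 10482 to 18404 of APOC1.

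APOE (chr19:44905754-44909393, plus strand), a ligand through which remnants bind LDL receptor family proteins, was counted at 353 CPM in DMSO, 621 in PD0332991, 365 in scrambled siRNA and 641 in CDK4/6 KD. The libraries fell into a low and a high pair. The fold change was 1.76 (1.69 to 1.83) in CDK4/6 KD and 1.76 (1.69 to 1.84) in PD0332991, and the controls did not differ beyond counting error, with a ratio of 1.03 (0.987 to 1.08). APOE and APOC1 lie side by side in the genome, yet the ratio of APOC1 to APOE reads was 3.37 in DMSO, 3.25 in PD0332991, 2.68 in scrambled siRNA and 2.27 in CDK4/6 KD, so it was lower in both libraries of the siRNA arm.

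APOH (chr17:66212033-66256525, minus strand), a plasma glycoprotein that binds anionic phospholipids, was at 1039 CPM in DMSO, 838 in PD0332991, 811 in scrambled siRNA and 1794 in CDK4/6 KD. CDK4/6 KD was the high library and the other three lay within a narrow range. Its level after the knockdown was 2.21-fold (2.16 to 2.27) that of scrambled siRNA and 1.73-fold (1.69 to 1.77) that of DMSO, whereas PD0332991 was lower than DMSO, at 0.807 (0.783 to 0.832). The control libraries differed by as much as the latter, with a ratio of 0.781 (0.758 to 0.804), and PD0332991 against scrambled siRNA was 1.03 (1.00 to 1.07). The direction for APOH under PD0332991 thus depended on the control used.

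**Figure D2:**
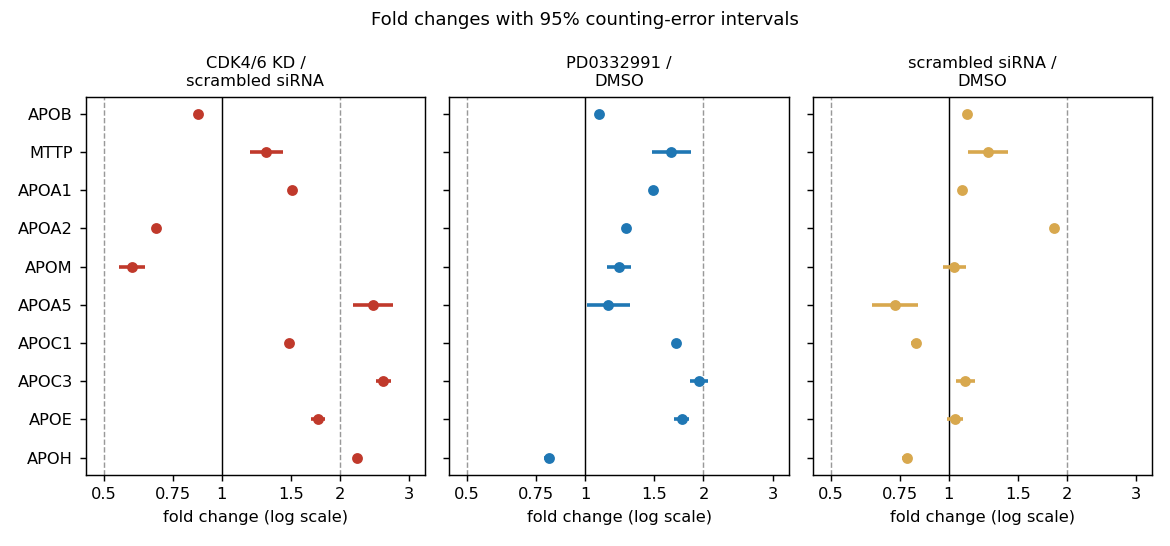
Fold changes on a log scale for CDK4/6 KD against scrambled siRNA, PD0332991 against DMSO and scrambled siRNA against DMSO; points are fold changes, bars their 95% counting-error intervals, and dashed lines mark 0.5-fold and 2-fold. APOC3, APOA5 and APOH lie past 2-fold with their whole interval in the knockdown, no gene does so with PD0332991, and APOA2 at 1.86-fold is the largest difference between the controls.

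In CDK4/6 KD against scrambled siRNA, 3 of the 10 genes were at least 2-fold higher, where 9.19% of all 13617 genes compared were, and 0 were at least 2-fold lower, where 7.62% were. At 1.5-fold, 5 of 10 were higher (19.4% of all genes) and 1, APOM, was lower (17.4% of all genes). The median of the set was 0.58 on the log2 scale, and the median log2 fold change over all genes was -0.0036. Measured against DMSO in place of scrambled siRNA, APOC3 was the only gene of the 10 past 2-fold upward, where 8.04% of 13512 genes were, and the set's median log2 fold change was 0.71.

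In PD0332991 against DMSO, 0 of the 10 genes were at least 2-fold higher, beside 7.49% of 13443 genes, and 0 at least 2-fold lower, beside 7.07%. At 1.5-fold, APOC1, APOC3, APOE and MTTP were higher, 4 of 10, against 16.8% of all genes. The median fold change of the set was 1.38 (0.46 on the log2 scale), and over all genes the median was 0.018 on the log2 scale. Against scrambled siRNA the set's median was 0.43, and APOC1, at 2.06-fold (2.01 to 2.11), was past 2-fold, where 10.7% of 13552 genes were.

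The controls, neither of which lacked CDK4 or CDK6, give a measure of how far 2 libraries of this cell line can lie apart without inhibition, though transfection separates them as well. In scrambled siRNA against DMSO, 0 of 10 genes were 2-fold higher (5.30% of all 13303 genes) and 0 were 2-fold lower (6.64%), and the set's median log2 fold change was 0.08. APOA2 was the only gene of the 10 at least 1.5-fold higher, where 13.4% of all genes were. These values share the scrambled siRNA library with the knockdown comparison and the DMSO library with the PD0332991 comparison.

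Placed in order, both inhibited libraries were above both controls for 6 of the 10 genes, namely APOA1, APOA5, APOC1, APOC3, APOE and MTTP, where 21.3% of 13961 genes had that order. The inhibited libraries were below both controls for 0 of 10, where 21.0% of all genes were. APOA2, APOB, APOH and APOM overlapped. Knockdown and inhibitor are different interventions, so the inhibited libraries are not replicates of each other.

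The make-up of the set differed between libraries too. APOB took 43.1% of the reads on the 10 genes in DMSO, 37.5% in PD0332991, 38.8% in scrambled siRNA and 33.5% in CDK4/6 KD, the lower share within each arm falling to the inhibited library although its own CPM varied little. APOA1 went the other way, with 14.4% in DMSO, 17.2% in PD0332991, 12.5% in scrambled siRNA and 18.8% in CDK4/6 KD. APOA2 held 35.4% in scrambled siRNA and between 23.6% and 24.2% in the others. APOC3 made up 1.49% in DMSO, 2.34% in PD0332991, 1.33% in scrambled siRNA and 3.41% in CDK4/6 KD. For APOH the share was 8.81% in CDK4/6 KD and at most 6.36% elsewhere. Since 3′ reads do not scale with transcript length, these are shares of reads and were not divided by length.

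**Figure D3:**
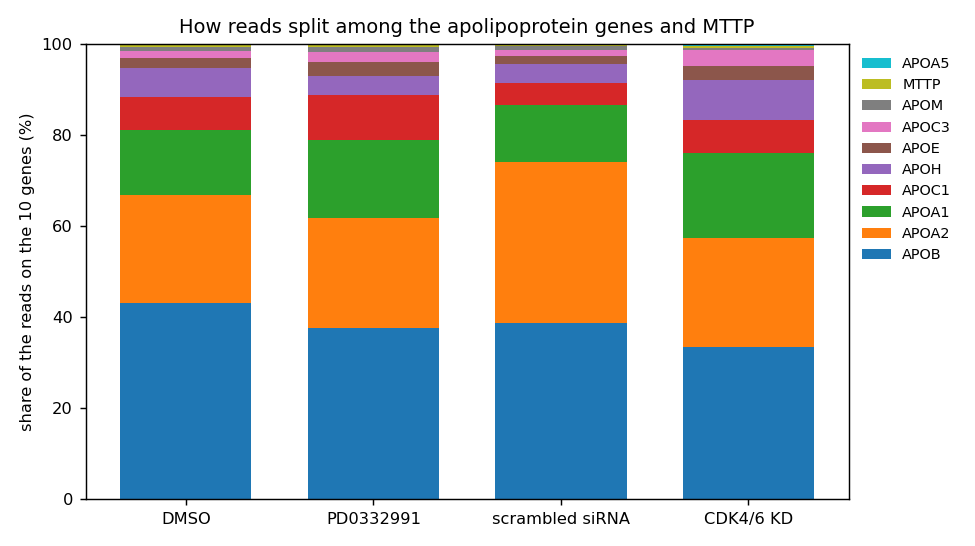
Share of the reads on the 10 genes taken by each gene, in percent, for each of the 4 libraries (stacked bars that sum to 100%). APOB, APOA2 and APOA1 fill most of every bar, and APOA2 is widest in scrambled siRNA, at 35.4%.

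Several of the genes are neighbours in the genome. APOA5, APOA4, APOC3 and APOA1 form a cluster on chromosome 11, with 2678 bases between APOC3 and APOA1, which are transcribed towards each other from opposite strands, and 37285 bases between APOA5 and APOC3. APOE and APOC1 lie 4853 bases apart on chromosome 19 with APOC4 and APOC2 downstream. Position was not used to choose the genes, so their neighbours show how local each difference was.

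On chromosome 11, the fold change in CDK4/6 KD against scrambled siRNA was 2.43 for APOA5, 2.58 for APOC3 and 1.51 for APOA1, while APOA4, an intestinal apolipoprotein that lies between APOA5 and APOC3, was at 0.925 (0.682 to 1.25) on 91 and 89 reads. Of the flanking genes, ZPR1 was at 0.814 (0.736 to 0.899), BUD13 at 0.971 (0.815 to 1.16), SIK3, a salt-inducible kinase, at 1.61 (1.29 to 2.02) and PAFAH1B2 at 1.17. In PD0332991 against DMSO, APOC3 and APOA1 were at 1.95 and 1.49, APOA4 at 0.842 (0.524 to 1.34), ZPR1 at 1.07 and BUD13 at 0.508 (0.411 to 0.624). APOA5 was there at 1.14 (1.01 to 1.30), SIK3 at 1.38 (1.10 to 1.74) and PAFAH1B2 at 0.984. APOA1-AS was at 3.14 (2.21 to 4.63) in the knockdown and 0.975 (0.688 to 1.38) with PD0332991.

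On chromosome 19, APOE, APOC1 and the pseudogene APOC1P1 were at 1.76, 1.48 and 1.85 in CDK4/6 KD and 1.76, 1.70 and 1.82 in PD0332991. TOMM40, which encodes the import channel of the mitochondrial outer membrane and ends 2064 bases before APOE begins, went the other way in both, with 0.657 (0.602 to 0.717) in the knockdown and 0.492 (0.446 to 0.542) with PD0332991. APOC2, the activator of lipoprotein lipase, was at 1.18 (1.12 to 1.24) and 1.13 (1.07 to 1.19), and NECTIN2, listed under its older symbol PVRL2, at 1.01 and 1.00. APOC4 had 5 reads with scrambled siRNA and 11 after knockdown, too few to place it.

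**Figure D4:**
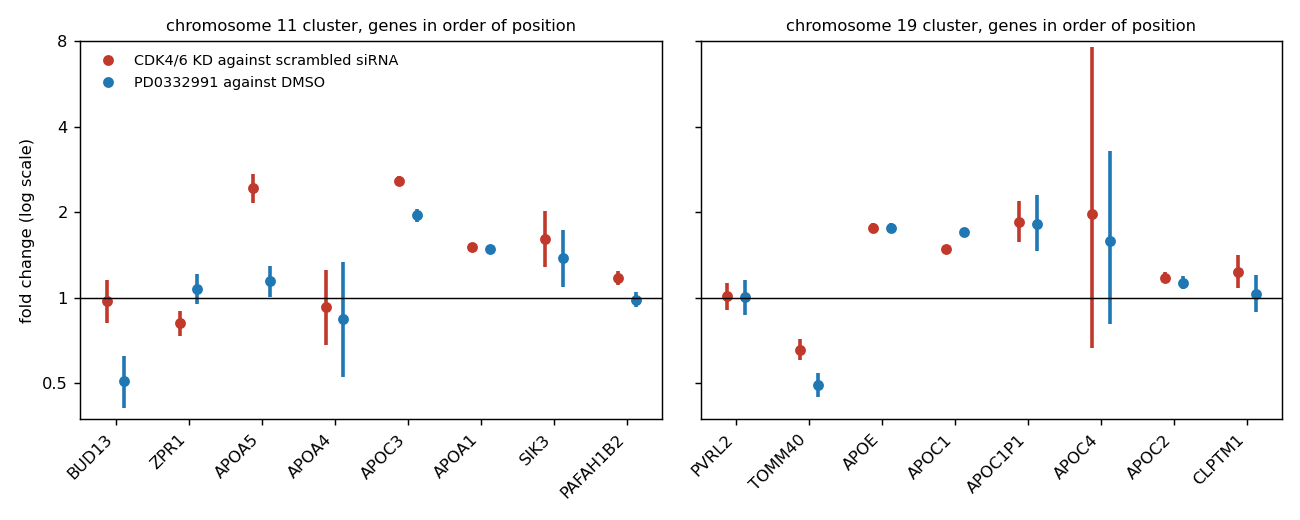
Fold changes, on a log scale, of the genes in the chromosome 11 and chromosome 19 apolipoprotein clusters, in order of position and not to scale of distance; points are fold changes and bars their 95% counting-error intervals, red for CDK4/6 KD against scrambled siRNA and blue for PD0332991 against DMSO. APOC3 stands at 2.58 and 1.95 beside APOA4 at 0.925 and 0.842, and TOMM40 at 0.657 and 0.492 beside APOE at 1.76 in both.

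Promoter sequences were compared because the genes differed in direction in the knockdown. RefSeq promoters on GRCh38.p14 were at hand for 7 of the 10 genes (11 start sites). None was at hand for APOA1, APOB and APOC3, so their promoters were not searched. The 250 bases before each start were searched on both strands for exact letters bound by liver factors and by E2F. E2F is the family released when CDK4 and CDK6 phosphorylate RB. A FOXA-type element, TNTTTAC, was found in 3 of the 11, in the promoters of APOA5, APOH and APOA2, and is held by 9.58% of all 35116 promoters of that length. The sequences below, each 5′ to 3′ on the strand of the gene and ending at the base before the start site, show APOA5 and APOH, higher after the knockdown, and APOA2 and APOM, lower after it, with capitals for the FOXA-type match and its reverse complement in APOA2. The windows are chr11:116792421-116792670 (minus strand) for APOA5, chr17:66229416-66229665 (minus strand) for APOH, chr1:161223629-161223878 (minus strand) for APOA2 and chr6:31655644-31655893 (plus strand) for APOM.
APOA5: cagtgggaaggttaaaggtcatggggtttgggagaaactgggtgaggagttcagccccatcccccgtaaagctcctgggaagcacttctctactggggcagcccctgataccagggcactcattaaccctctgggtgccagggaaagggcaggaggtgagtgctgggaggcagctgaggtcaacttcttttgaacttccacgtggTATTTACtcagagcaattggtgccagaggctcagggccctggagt
APOH: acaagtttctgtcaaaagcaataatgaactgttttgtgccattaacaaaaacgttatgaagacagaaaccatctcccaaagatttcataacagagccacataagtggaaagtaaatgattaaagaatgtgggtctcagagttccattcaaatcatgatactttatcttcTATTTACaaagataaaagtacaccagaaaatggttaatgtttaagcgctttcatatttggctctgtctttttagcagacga
APOA2: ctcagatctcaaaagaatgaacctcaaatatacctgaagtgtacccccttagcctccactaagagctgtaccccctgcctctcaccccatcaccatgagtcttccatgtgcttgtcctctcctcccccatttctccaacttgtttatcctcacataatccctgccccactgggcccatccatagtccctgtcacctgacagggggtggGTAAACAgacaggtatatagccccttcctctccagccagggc
APOM: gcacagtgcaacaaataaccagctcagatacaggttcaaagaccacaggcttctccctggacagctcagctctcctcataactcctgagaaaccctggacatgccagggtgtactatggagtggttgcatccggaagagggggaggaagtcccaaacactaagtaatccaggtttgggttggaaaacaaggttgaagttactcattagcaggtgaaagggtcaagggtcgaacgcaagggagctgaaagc

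The match begins at position -45 from the start in APOA5, -81 in APOH and -42 in APOA2, and APOM has none. With scrambled siRNA as the control, the match was present in promoters of genes on either side of 1 in the knockdown. Against DMSO, APOA5, APOH and APOA2 were all above 1 in the knockdown, at 1.77, 1.73 and 1.26. The GC content of the windows was 56.4% in APOA5, 33.2% in APOH, 52.8% in APOA2 and 50.4% in APOM, beside a median of 58.0% over all promoters. The E2F letters TTTCCCGC (1.39% of all promoters), the C/EBP letters TTGCNNAA (9.05%) and the HNF4-type letters CAAAGTCCA (0.325%) and CAAAGGTCA (0.339%) were in 0 of the 11. The elements DR1, DR4 and HNF1 (0.0171%, 0.0142% and 0.0484%) were also in 0. The 11 windows include none of APOA1, APOB or APOC3. The TATA letters TATAAA (10.7%) were in 1, as the reverse complement TTTATA beginning at position -227 from an MTTP start. A match is a run of letters and not a bound site, and its absence says only that these letters are not in the window.

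The remaining apolipoproteins were mostly low in these cells. Of 15 listed, 10 passed the filter in either arm; APOL6, a member of the APOL family, was 2.58-fold (2.28 to 2.94) higher in PD0332991 than in DMSO and 2.26-fold (1.98 to 2.59) higher after the knockdown than with scrambled siRNA. In the knockdown comparison 1 of the 10 was at least 2-fold higher (9.19% of all genes) and 1 lower (7.62%), with a median log2 fold change of 0.24. Against DMSO, 3 of 10 were at least 2-fold higher in CDK4/6 KD (8.04% of all genes), with a median of 0.50. In the PD0332991 comparison 2 were higher (7.49%) and 0 lower (7.07%), with a median of 0.23. CLU, a secreted chaperone found on HDL, was at 400 CPM in DMSO, 487 in PD0332991, 535 in scrambled siRNA and 882 in CDK4/6 KD. It is given after its values were seen.

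Of 25 genes of lipoprotein assembly and secretion, 4 were at least 2-fold higher (9.19% of all genes) and 1 lower (7.62%) in CDK4/6 KD. Their median log2 fold change was 0.23. Against DMSO, 2 of the 25 were at least 2-fold higher in CDK4/6 KD (8.04% of all genes), with a median of 0.32. In PD0332991 0 were past 2-fold either way (median 0.07), where 7.49% of all genes were higher and 7.07% lower. CIDEB, which helps enlarge nascent particles, was at 137 CPM in DMSO, 205 in PD0332991, 157 in scrambled siRNA and 379 in CDK4/6 KD, which was 2.41-fold (2.27 to 2.55) higher than its control and 2.76-fold higher than DMSO. TM6SF2, needed for lipidation of secreted particles, had 14 reads with scrambled siRNA and 55 after knockdown, a fold change of 3.61 (2.04 to 7.23), but 1.58 (0.989 to 2.60) against the 28 reads in DMSO. SAR1B, a GTPase of the vesicles that carry bulky cargo out of the endoplasmic reticulum, was 2.70-fold higher and SOAT2, which esterifies cholesterol, was at 0.316 against scrambled siRNA, and against DMSO they were at 1.17 (1.02 to 1.34) and 1.06 (0.892 to 1.25).

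Of 16 receptors and uptake proteins, 14 passed the filter. In CDK4/6 KD, 4 were at least 2-fold higher (9.19% of all genes) and 0 lower (7.62%), with a median log2 fold change of 0.13. Against DMSO, 3 of 14 were at least 2-fold higher in CDK4/6 KD (8.04% of all genes), with a median of 0.12. In PD0332991 1 was higher (7.49%) and 0 lower (7.07%), with a median of -0.10. VLDLR, a receptor for triglyceride-rich particles that carry APOE, had 13 reads in DMSO, 23 in PD0332991, 15 in scrambled siRNA and 152 in CDK4/6 KD, a fold change of 9.29 (5.63 to 17.5). The fatty acid translocase CD36 was 2.74-fold (2.13 to 3.60) and AMN, part of a receptor for filtered and absorbed proteins, 2.88-fold (2.04 to 4.22) higher, and against DMSO CD36 was at 3.02 and AMN at 1.57.

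Of 15 lipases, transfer proteins and HDL maturation genes that passed, 6 were at least 2-fold higher in CDK4/6 KD (9.19% of all genes) and 1 lower (7.62%). Their median log2 fold change was 0.51. Against DMSO, 2 of 15 were at least 2-fold higher in CDK4/6 KD (8.04% of all genes), with a median of 0.33. Some of the 6 passed only through the knockdown library, such as CETP, with 1 read in scrambled siRNA and 12 after knockdown. In PD0332991, 1 of 13 was higher (7.49%) and 0 lower (7.07%), with a median of 0.28. The higher gene was CETP, on 6 reads in DMSO and 16 in PD0332991. In CDK4/6 KD the sterol transporter ABCG8 was 3.86-fold (2.30 to 7.15) higher than in scrambled siRNA and 1.24-fold (0.848 to 1.85) higher than in DMSO.

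Among 30 regulators of apolipoprotein genes, 5 were at least 2-fold higher in CDK4/6 KD (9.19% of all genes) and 1 lower (7.62%). Their median log2 fold change was 0.41. Against DMSO, 3 of the 30 were at least 2-fold higher in CDK4/6 KD (8.04% of all genes), with a median of 0.15. In PD0332991 0 were past 2-fold either way (median 0.27), where 7.49% of all genes were higher and 7.07% lower. The bile acid receptor NR1H4, at 28.1 CPM in DMSO, 30.4 in PD0332991, 7.38 in scrambled siRNA and 29.8 in CDK4/6 KD, was 4.01-fold (3.15 to 5.22) higher than in scrambled siRNA and 1.06-fold (0.897 to 1.25) against DMSO. The nuclear receptor NR2F2 and the factor ONECUT1 were likewise 2.45-fold and 3.40-fold higher than in scrambled siRNA and at 1.05 and 1.13 against DMSO, and the nuclear receptor NR5A2 was at 0.273 and 0.810. For these 4 genes the scrambled siRNA library stood apart from the other three. In scrambled siRNA against DMSO 4 of the 30 were at least 2-fold higher (5.30% of all genes) and 7 lower (6.64%). HNF4A, a nuclear receptor that drives many liver genes including several apolipoproteins, was at 148 CPM in DMSO, 202 in PD0332991, 149 in scrambled siRNA and 163 in CDK4/6 KD, with fold changes of 1.09 (1.02 to 1.17) in the knockdown and 1.36 (1.27 to 1.46) with PD0332991.

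Other secreted liver proteins are made by the same cells. Of 28 listed, 27 passed. In CDK4/6 KD 11 were at least 2-fold higher (9.19% of all genes) and 0 lower (7.62%), with a median log2 fold change of 0.81. In PD0332991 5 were higher (7.49%) and 0 lower (7.07%), with a median of 0.49. Of those higher, ITIH1 and ITIH4 passed the filter only through the inhibited library in each arm, and KNG1 only through the knockdown. ITIH4 had 2 reads in DMSO, 15 in PD0332991, 8 in scrambled siRNA and 29 in CDK4/6 KD. Past counting error, 24 of the 27 were above 1 and 2, CP and AGT, below in the knockdown. With PD0332991 19 were above and 4, ALB, AFP, HP and ITIH2, below. In scrambled siRNA against DMSO, 6 were above and 14 below (median -0.16). The fibrinogen chain gene FGA was at 286 CPM in DMSO, 451 in PD0332991, 267 in scrambled siRNA and 905 in CDK4/6 KD, or 3.39-fold (3.25 to 3.53) higher in the knockdown, and the haem-binding HPX was 8.75-fold (7.03 to 11.1) higher there. SERPINC1, which encodes antithrombin, was 2.40-fold (2.14 to 2.69) higher in PD0332991. ITIH1, a chain that binds hyaluronan, had 3 reads in DMSO, 35 in PD0332991, 2 in scrambled siRNA and 149 in CDK4/6 KD. KNG1, kininogen, had 14 reads in DMSO, 15 in PD0332991, 0 with scrambled siRNA and 26 after knockdown, so the scrambled library was the one apart, and against DMSO the knockdown was at 1.48 (0.755 to 3.11). The median of the 10 genes, 0.58 in the knockdown and 0.46 with PD0332991, lay under that of the other secreted proteins in both arms, but against DMSO the knockdown gave 0.71 for the 10 genes and 0.41 for the other secreted proteins, so that order depended on the control. All these lists are described by counts and medians alone, with no test.

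**Figure D5:**
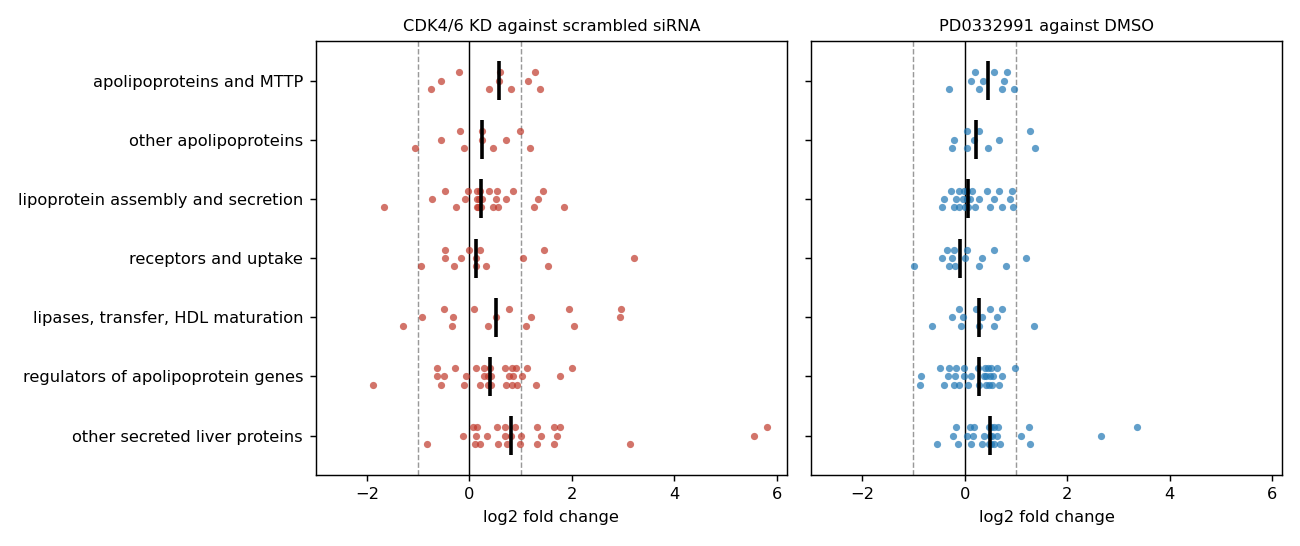
Log2 fold changes of the 10 genes (top row) and of the fixed gene lists around them, for CDK4/6 KD against scrambled siRNA and PD0332991 against DMSO; each point is a gene past the filter, black bars are medians and dashed lines mark 2-fold. The bar of the 10 genes lies at 0.58 and 0.46 and that of other secreted liver proteins at 0.81 and 0.49; KNG1, with 0 reads in scrambled siRNA, is drawn with the pseudocount and its place has no upper limit.

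Over the 4 libraries the median profile of the 10 genes, as log2 CPM centred on each gene's mean, was -0.27 in DMSO, 0.26 in PD0332991, -0.31 in scrambled siRNA and 0.31 in CDK4/6 KD. APOA1 was nearest to it among the members, at rank 25 by Euclidean distance among 9229 genes with at least 100 reads on average, followed by APOE at 239 and MTTP at 294, and APOM was farthest, at 7262. The members themselves make up this median profile, so their ranks are not independent of it. The 5 other genes nearest to the median profile were PRR15, FKBP10, C20orf96, GSAP and C22orf15, at distances of 0.0640 to 0.0755. FKBP10, for example, was at 120 CPM in DMSO, 164 in PD0332991, 115 in scrambled siRNA and 170 in CDK4/6 KD. With 4 libraries many genes share any profile, and Pearson correlation in place of distance named 2 of these 5.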

How the data were processed

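Counts per gene symbol were deposited by the authors for 4 QuantSeq 3′ libraries, unnormalized and 1 per condition. The submitters' processing notes name Bowtie2, edgeR and hg19, without roles or versions, and the counter and annotation are not given in the sources used here. The tables list 25737 entries each, and counts of the 286 repeated symbols were summed to 24462 genes. Library sizes were scaled with TMM factors (edgeR 4.0.16, R 4.3.3), and 0.5 reads, scaled to library size, were added for fold changes. A gene was compared where it reached 10 reads in either library. Exact 95% Clopper-Pearson intervals came from scipy 1.17.1 and cover counting error only. PCR copies are not accounted for, as no molecular identifiers are named. The quasi-likelihood test of edgeR needs replicates and was not run.

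The genes, the lists and the tests were chosen with earlier results of these data known. Named were all 10 genes, the cluster genes, genes of each list whose whole interval lay past 2-fold (at most 4 per list and comparison, ranked by the interval end nearest to 1), and the 5 genes nearest in profile. A gene that this rule names is not reported here. HNF4A, CLU, CETP, the single cell type markers, the secreted proteins CP, AGT, ALB, AFP, HP, ITIH2 and ITIH4, and the ratios between members were added after their values were seen.

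Positions came from GENCODE 29 (GRCh38) and promoters from RefSeq (GRCh38.p14), neither the build of the counts. Alternatives were DESeq2 1.42.0 size factors, total counts, TMM without the 10 genes, a pseudocount of 5 reads, other filters and thresholds, only the largest entry of each repeated symbol, and the control of the other arm. The fold change and its interval were tested on simulated counts with known folds, known library sizes and counting error alone. Such a test cannot speak to the spread between cultures or to errors of scaling.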

Additional observations from a re-analysis of the deposited data

Results flagged for a closer look

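For 4 of the 10 genes the knockdown and PD0332991 differed in direction from their own controls, with 1 library each, and the difference between the arms was not tested. APOM was at 0.591 in CDK4/6 KD against scrambled siRNA and 1.22 in PD0332991 against DMSO, and against the shared DMSO library it was at 0.610 and 1.22. APOH was at 2.21 and 0.807, and at 1.73 and 0.807 when both were set against DMSO. APOA2 was at 0.679 and 1.27, but at 1.26 and 1.27 against DMSO, so the opposite directions were present only with scrambled siRNA as the control of the knockdown. APOB was at 0.868 and 1.08, and at 0.968 and 1.08 against DMSO. The other 6 genes had the same direction in both arms.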

How the results depend on the processing

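Of 30 fold changes of the 10 genes over 3 comparisons, all 30 stayed within their counting intervals with DESeq2 size factors, with TMM factors computed without the 10 genes, with a pseudocount of 5 reads and with only the largest entry of each repeated symbol. With total counts alone 13 left their interval and 2 changed sign, APOE at -0.016 and APOM at -0.018 (log2) in scrambled siRNA against DMSO. That scaling shifted the median of all genes in CDK4/6 KD against scrambled siRNA by 0.10 (log2), and the median of the set was 0.69 there and 0.016 in scrambled siRNA against DMSO. With the control of the other arm, 16 of 20 fold changes left their interval and 4 changed sign: APOA2 to 0.33 in the knockdown and -0.54 in PD0332991, APOB to -0.042 and APOH to 0.048 in PD0332991 (log2). The set's median was then 0.71 in the knockdown and 0.43 in PD0332991, and 1 gene was at least 2-fold higher in the knockdown and 1 in PD0332991. With a threshold of 1.5-fold in place of 2-fold, 5 genes were higher (19.4% of all genes) and 1 lower (17.4%) in the knockdown, 4 higher in PD0332991 (16.8%), and 1 higher in scrambled siRNA against DMSO (13.4%). Reads on the set per 100 reads on the other secreted liver genes were 124.1 in DMSO, 129.1 in PD0332991, 178.1 in scrambled siRNA and 112.3 in CDK4/6 KD. Of 96 medians of gene lists under other settings, 3 left the median counting range of their genes and 1 changed sign. That was the median of receptors and uptake in PD0332991 against DMSO, at -0.095 with the filter on low counts and 0.0025 without it (log2). The cause of these shifts was not tested. No paired analysis was possible because each condition has 1 library, and for the same reason no library could be left out.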
